A study of Mus musculus with 4 samples.

Results

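Col3a1-high Cxcl12-low fibroblasts are cells of sorted mouse femur marrow with much type III collagen RNA and little RNA for Cxcl12, the chemokine that marks the reticular stroma of marrow. They were chosen on RNA. Of the 25629 barcodes in 4 libraries, 18543 had 500 or more genes, 1000 or more UMIs (unique molecular identifiers, each counted as 1 RNA molecule) and at most 10% mitochondrial UMIs. A cell was a member at 30 or more Col3a1 UMIs and fewer than 20 Cxcl12 and 20 Col2a1 UMIs per 10000 gene UMIs, no UMI of Cdh5, Rgs5, Myh11 or Ifitm5, and fewer than 2 Acta2 UMIs. The last 6 genes mark cartilage, endothelium, pericytes, smooth muscle, osteoblasts and contractile cells. This left 345 members, 1.86% of the cells that passed the limits.

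Fibroblasts of this kind lie outside the marrow reticulum, around vessels, in periosteum, tendon and ligament insertions and the joint lining. They build interstitial matrix from fibrillar collagens, which small proteoglycans such as decorin and lumican space and bind. Femurs that are cut up and digested with collagenase can release such cells beside LepR stroma, the Cxcl12-rich perivascular cells that hold haematopoietic and lymphoid niches. Interferons act on almost every nucleated cell through STAT and IRF transcription factors and raise antiviral genes and the class I antigen presentation genes.

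All 4 libraries came from C57BL/6 mice of the genotype Rag2-/-gammac-/-, which lack mature lymphocytes of their own. Ctrl came from ungrafted mice at steady state, and Sham_D40 from mice given PBS in place of cells and taken at day 40. Graft_D19 and Graft_D40 came from mice whose femur had been injected with DOHH2, a human B-cell line established from follicular lymphoma, and were taken at day 19 and day 40. Per the labels' protocols, stroma lacked Cd45, Ter119 and Cd31 and carried Cd51 and Cd200, endothelium carried Cd31 and Sca1, and human CD20 positive lymphoma cells were sorted as well. Age, sex and the number of mice behind a library are not given in the sources used here.

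Each group was 1 library, so no difference between groups could be tested, and animal, day and library cannot be told apart from the group. Every interval below is an exact 95% interval that covers counting error only. Ctrl held 18533482 gene UMIs and Sham_D40 51744386, and the grafted libraries Graft_D19 and Graft_D40 held 63214301 and 72204599. Between any pair of libraries 4 to 10 passing cells shared a barcode, and no member shared one with a member of another library. A doublet caller (Scrublet) marked 44 to 91 passing cells per library and 1 member, in Sham_D40.

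Members numbered 22 of the 4151 passing cells of Ctrl and 128 of the 4570 of Sham_D40, then 80 of 4902 at day 19 and 115 of 4920 at day 40 of the graft. Their share was 0.530% (Clopper-Pearson interval 0.332 to 0.801) in Ctrl and 2.80% (2.34 to 3.32) in Sham_D40. For Graft_D19 it was 1.63% (1.30 to 2.03), and for Graft_D40 2.34% (1.93 to 2.80). Ctrl had the lowest share, and the grafted libraries lay between the ungrafted ones. Among passing cells without a Cdh5 UMI, the non-endothelial cells, the shares were 0.859%, 4.20%, 2.44% and 3.47% in the same order. The sort and the dissociation can set these shares, and their part was not tested.

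Ctrl members were shallow. Their median depth was 3840.5 UMIs per cell, while Sham_D40 had 12769.5 and the grafts 9727.5 at day 19 and 11531 at day 40, and the 5 deepest Ctrl cells held 47.5% of all Ctrl member UMIs. Summed over members, the libraries had 103929, 1778824, 879053 and 1482707 UMIs. All levels below are CPM, the UMIs of a gene per 1000000 of these sums. A level of 1 UMI was 9.62 CPM in Ctrl and 0.562, 1.14 and 0.674 CPM in Sham_D40, Graft_D19 and Graft_D40. A count of 0 therefore allowed up to 28.9, 1.69, 3.41 and 2.02 CPM, the level of 3 UMIs. Mitochondrial RNA was alike, with medians from 2.66% to 2.93% of UMIs per cell.

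**Figure D1:**
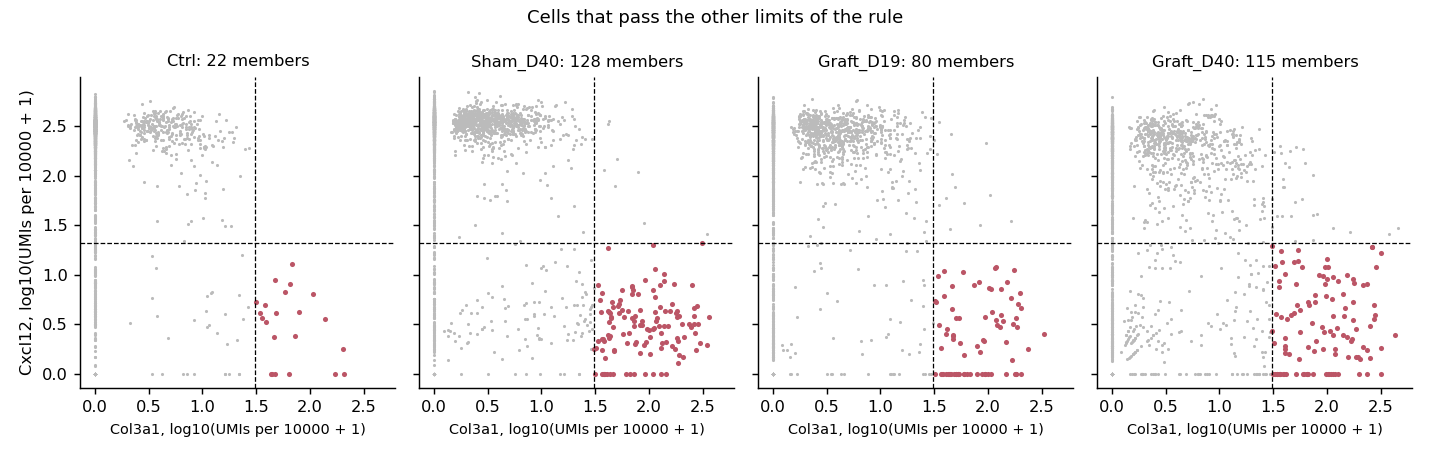
Cells that pass every other limit of the rule, plotted by Col3a1 (x axis) and Cxcl12 (y axis), both as log10 of UMIs per 10000 plus 1, in 1 panel per library. Red points are members, grey points are cells outside the limits and dashed lines are the Col3a1 and Cxcl12 limits. The Cxcl12-rich stroma forms a dense group at the top left of each panel, and members spread along the Col3a1 axis at the bottom right.

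The plot of the rule's genes shows that Cxcl12 divided the cells along a sparsely filled gap, whereas the Col3a1 limit cut a continuous range. The member nearest the Col3a1 limit had 30.0 UMIs per 10000 and the nearest cell outside 29.93, and 1198 cells failed this limit alone. For Cxcl12 the nearest values were 19.83 inside and 21.14 outside, with 48 cells failing it alone. The Col2a1 limit had 12.84 inside and 21.82 outside, with 41 cells. The Acta2 limit alone removed 56 cells, 44 of them in Graft_D40, so it acted mostly on that library. Median Col3a1 was 52.2 UMIs per 10000 in Ctrl members and 77.4 to 92.6 in the other libraries.

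The label was checked against markers that the rule did not use, in the same cells. Dcn (decorin) was at 20071 and 19407 CPM in Ctrl and Sham_D40, and at 16752 and 12529 in Graft_D19 and Graft_D40. Values of 4 libraries are given in this order from here on. It had a UMI in 21 of 22, 128 of 128, 78 of 80 and 97 of 115 members, so 18 members of Graft_D40 had none. Fn1 (fibronectin) was at 5013, 9521, 7665 and 9160 CPM. Lum (lumican) was at 2319, 3896, 2290 and 2239 CPM, with a UMI in 13, 114, 71 and 91 members. Cilp, a cartilage intermediate layer protein of tendon and ligament, was at 2059, 1615, 1097 and 559 CPM and had a UMI in only 9, 73, 38 and 31 members. Dcn, Fn1 and Lum were thus found in most members of each library, and Cilp in fewer. Not all of them are specific beside the chondrocyte gate, cells rich in Col2a1. Members exceeded that gate by only 0.52 to 0.9 on the log2 scale for Fn1, and by 2.98, 0.08, 1.16 and 1.14 for Cilp. For Dcn the excess was 2.56 to 4.79 and for Lum 2.4 to 2.89. Fn1 therefore set members little apart from these cells in any library, and Cilp hardly at all in Sham_D40. The sorted surface markers were modest: Itgav (Cd51) was at 106 to 131 CPM, and Cd200 at 87.0 to 154 CPM with a UMI in 5 of 22, 36 of 128, 23 of 80 and 35 of 115 members.

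Markers of other cell types were counted over whole lists. The 12 endothelial markers summed to 85.0 to 89.9 CPM in members, against 10551 to 13298 CPM in cells with 2 or more Cdh5 UMIs (the endothelial gate), and Cdh5 was at 0 by the rule. The 12 LepR stroma markers summed to 625, 870, 820 and 1313 CPM, against 36509 to 59621 CPM in 6644 cells with 50 or more Cxcl12 UMIs per 10000 and a Lepr UMI (the LepR gate). Cxcl12 and Lepr are among these markers, and the rule caps Cxcl12 in members, so part of this gap was set by the choice of cells. Haematopoietic markers summed to 19.2, 473, 45.5 and 43.8 CPM. In Sham_D40, 97.3% of the S100a8 and 95.4% of the S100a9 UMIs, both neutrophil genes, came from 1 cell. Erythroid markers summed to 48.1 CPM in Ctrl and 7.42 to 9.10 elsewhere, and skeletal muscle markers to at most 17.4 CPM. The osteolineage list summed to 11162, 13716, 22074 and 13606 CPM, with Mepe at 0 in all 4 libraries and Ifitm5 at 0 by the rule. Col1a1 was its largest part, at 9593, 9029, 12922 and 6295 CPM. Ibsp was above Spp1 in Ctrl (991 and 231 CPM) and Graft_D19 (6382 and 2119). It was below Spp1 in Sham_D40 (1982 and 2118) and Graft_D40 (844 and 5879). Tendon and ligament markers summed to 5032, 4755, 3829 and 1122 CPM, adventitial fibroblast markers to 8439, 4894, 6250 and 5443, and synovial lining markers to 6668, 4694, 2851 and 3985. No single fibroblast subtype list accounted for the members.

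Genes that set members apart from LepR stroma are a description, since both sets were cut on RNA. Genes were compared if members of any library reached 50 CPM, with no such limit on the gates. This filter favours genes that are high in members, so the count depends in part on the choice. Of 3785 such genes, 198 were at least 2-fold above the LepR, osteoblast and chondrocyte gates in all 4 libraries. S100a4, a calcium-binding protein long used as a fibroblast marker, came first when genes were ordered by the smallest of their 4 log2 ratios against the LepR gate (7.39), with 3127, 4771, 4024 and 3256 CPM in members and 5.71, 21.2, 15.5 and 14.5 CPM in the gate. Clec3b (tetranectin) was at 2781, 996, 1717 and 1130 CPM against 2.78, 6.20, 4.46 and 0.498. Igfbp6, which binds IGF2 and exceeded the gate by up to 9.40 on the log2 scale, was at 10584 CPM in Ctrl and at 3055 to 4370 in the other libraries, against 4.48 to 27.9 in the LepR gate. The matrix organisers Tnxb (tenascin X) and Dpt (dermatopontin) exceeded the gate by at least 6.17 and 6.14 on the log2 scale in every library, and Aspn (asporin) by at least 5.95. In the other direction Adipoq (adiponectin) was at 6.83 to 10.1 CPM in members and 1154 to 3207 in the gate, and Esm1 at 0 to 8.77 against 1152 to 1676. Tppp3, Ccn3, Myoc, Ly6c1, Ackr3, Fbln2, Anxa8, Lgals3 and Col14a1 completed the 15 highest, and Hp, Il1rn, Trf, Kng1, Kng2 and Gdpd2 the 8 lowest.

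Members were not uniform. Clustering them across libraries gave 7 sub-clusters, described here by number. Sub-cluster 1 had all 10 tendon and ligament markers above the other members and was led by Mstn, Kera, Tnmd and Thbs4, so it was tendon-like. Sub-cluster 2 had 10 of 12 adventitial markers, among them Dpp4 and Cd34, with Ccn3 among its leading genes, and was adventitial fibroblast-like. Pi16, another marker on that list, was instead a marker of sub-cluster 3, with Dpt. The other sub-clusters were left unnamed. Sub-cluster 0 was led by Tnfrsf19, Slit2 and Cdh2 and carried 7 of 12 LepR and 6 of 12 osteolineage markers. Its Dcn was at 6341 CPM in Sham_D40 and 1677 in Graft_D40, against 20110 and 18961 in the members outside it. Its Cilp was at 0 and 1.81 CPM, against 1702 and 889. The fibroblast label is therefore uncertain for sub-cluster 0. Sub-cluster 3 was led by Ntrk2, Apod and Fst, sub-cluster 4 by Lrrc15, Fbln7 and Acp5, sub-cluster 5 by Npy, Clu and Chad, and sub-cluster 6 by Acan, Adamts18 and Ibsp. Sub-cluster 5 carried 5 of 10 tendon and 4 of 7 synovial lining markers. Sub-cluster 6 carried 7 of 14 chondrocyte markers, among them Col2a1, Acan and Sox9, and 4 of 12 osteolineage markers. The fibroblast label is uncertain for sub-cluster 6 too.

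The makeup of the members differed between libraries. Sub-cluster 0 held 3 of the 22 Ctrl members and 8 of the 128 of Sham_D40 (6.25%, interval 2.74 to 11.9). It held 13 of the 80 Graft_D19 members (16.25%, 8.95 to 26.2) and 43 of the 115 of Graft_D40 (37.4%, 28.6 to 46.9). The tendon-like cells numbered 7, 9, 10 and 4, the adventitial fibroblast-like cells 8, 21, 27 and 20, and sub-cluster 4 held 1, 52, 17 and 31. Sub-clusters 3, 5 and 6 held 2, 16, 7 and 13, then 1, 12, 2 and 4, then 0, 10, 4 and 0. Because genes that differ between libraries can shape such clusters, the members were clustered again without 2832 genes that were called in any comparison or belong to the interferon and antigen presentation lists. A cluster that took 63 of the 67 cells of sub-cluster 0 then held 18.2%, 14.1%, 21.25% and 37.4% of members. The cluster with most tendon-like cells, together with sub-cluster 5, held 31.8%, 19.5%, 20.0% and 12.2%. Graft_D40 had the largest share of the former and the smallest of the latter in this clustering, and the largest share of sub-cluster 0 and the smallest of sub-cluster 1 (3.48%) in the first one. With 1 library per group a sub-cluster that is mostly of 1 library may be that library.

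**Figure D2:**
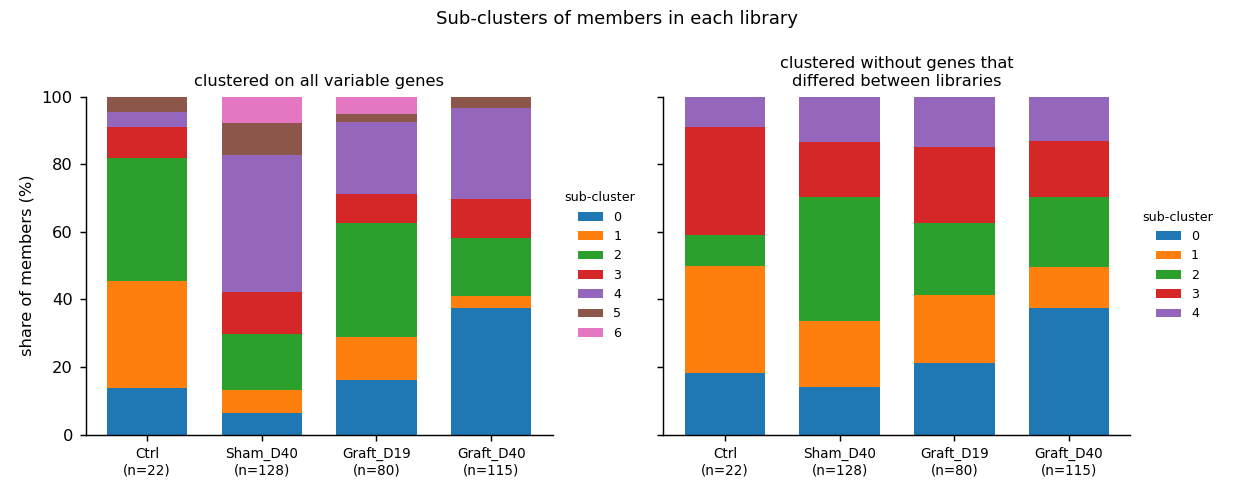
Share of members (y axis, percent) in each sub-cluster, as stacked bars for Ctrl, Sham_D40, Graft_D19 and Graft_D40, with the number of members under each bar. The left panel used all variable genes and the right panel left out 2832 genes that differed between libraries. Colours are numbered anew in each panel. The blue part, sub-cluster 0 in either panel, is tallest in Graft_D40 at 37.4%.

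The late graft was compared with the sham injection, both taken at day 40. A gene was measured at 10 or more UMIs over the 2 libraries and a mean of 5 CPM or more. The call, higher or lower, asked for a ratio of at least 1.5-fold whose interval excluded 1. Of 10328 measured genes, 890 (8.62%) were called higher in Graft_D40 and 516 (5.0%) lower, and the median log2 ratio was 0.04. Log2 ratios were taken after adding 5 CPM to both levels, which shrinks the ratios of low genes. Between the ungrafted libraries, Sham_D40 over Ctrl, 427 of 9335 measured genes (4.57%) were called higher and 519 (5.56%) lower. Where no other share is given, list counts for Graft_D40 over Sham_D40 are to be read beside 8.62% higher and 5.0% lower. Those outside sub-cluster 0 are to be read beside 6.31% and 4.93%, and those for Graft_D19 over Ctrl beside 3.96% and 4.98%. No such share is given for Graft_D40 over Ctrl or for other limits of the rule, so list counts there are descriptions only.

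Interferon-stimulated genes were higher in Graft_D40 members as a group. Of 46 list genes matched in the files, 38 were measured, 33 were called higher (86.8%, against 8.62% of all measured genes) and 0 lower, with a median log2 ratio of 1.11. Against Graft_D19, the other graft, 33 of 39 measured genes were called higher (7.43% of all measured genes) and 0 lower, with a median of 1.72. In Graft_D19 over Ctrl 0 of 19 were called higher and 1 lower, against 3.96% and 4.98% of all measured genes. In Sham_D40 over Ctrl 1 of 27 was called higher and 1 lower, against 4.57% and 5.56%. These comparisons share libraries, the first 2 Graft_D40, the last 2 Ctrl, and the first and last Sham_D40. With Ctrl as the comparator, 14 interferon genes were called higher in Graft_D40, where the 22 shallow Ctrl members limit the count.

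Bst2 (tetherin, which holds budding virus at the cell surface) was at 67.4, 67.5, 70.5 and 375 CPM. The Graft_D40 level was 5.56 times that of Sham_D40 (interval 4.56 to 6.83), and the other 3 libraries were alike. A UMI of Bst2 was found in 5 of 22, 56 of 128, 28 of 80 and 77 of 115 members. In Graft_D40 33.3% of the Bst2 UMIs came from 1 cell, and without the highest cell of each library the levels were 257.7 against 60.3 CPM, still 4.27-fold apart.

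Isg15, the ubiquitin-like modifier, had no UMI in Ctrl and was at 31.5, 18.2 and 165 CPM in Sham_D40, Graft_D19 and Graft_D40. The Graft_D40 to Sham_D40 ratio was 5.25 (3.91 to 7.15). A single Sham_D40 cell held 57.1% of the Isg15 UMIs of that library, and without the highest cells the ratio was 8.75. Irf7, the transcription factor that amplifies type I interferon responses, was at 0, 6.75, 3.41 and 82.3 CPM, a ratio of 12.2 (6.74 to 24.3) in Graft_D40 over Sham_D40. Lgals3bp, a secreted galectin-3 ligand, was at 38.5, 46.7, 58.0 and 216 CPM. It had a UMI in 3, 41, 33 and 92 members, and its highest Graft_D40 cell held 7.81% of the UMIs.

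Further called genes were chosen for naming after their values were seen. Among transcription factors Stat2 was at 25.3 CPM in Sham_D40 and 43.2 in Graft_D40, and Irf9 at 21.4 and 47.9. The immunity GTPase Iigp1 was at 9.62, 12.9, 12.5 and 84.3 CPM across the libraries, with Irgm1, Irgm2, Gbp2, Gbp3, Gbp6 and Gbp7 also called higher. Ifitm3, a block to virus entry and the most abundant of the list, was at 898 CPM in Sham_D40 and 1833 in Graft_D40, and no Graft_D40 member was without a UMI of it. The nucleic acid sensors Zbp1 (2.81 and 40.5 CPM), Ifih1 (23.6 and 46.5) and Ddx58 (23.1 and 45.2) were called as well. The 5 measured genes that were not called were Socs1 (27.0 and 22.3 CPM), Ifi27 (219.8 and 265), Ifit1 (61.3 and 81.6), Cmpk2 (3.37 and 7.42) and Igtp (6.75 and 14.2).

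**Figure D3:**
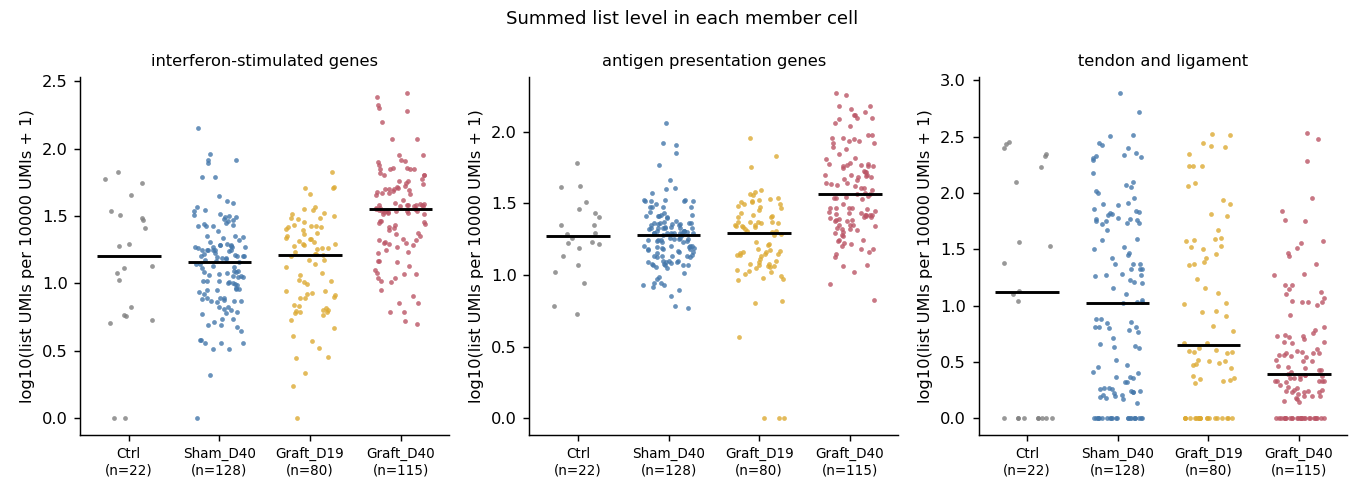
Summed level of 3 gene lists in each member cell (y axis, log10 of list UMIs per 10000 UMIs plus 1) for Ctrl, Sham_D40, Graft_D19 and Graft_D40. Points are cells and black bars are library medians. Graft_D40 cells are shifted upward for the interferon-stimulated (median 34.5 against 13.5 to 15.3 per 10000) and antigen presentation lists and downward for the tendon and ligament list, and the clouds overlap in all 3 panels.

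Over single cells the interferon list had medians of 15.2, 13.5, 15.3 and 34.5 UMIs per 10000. The lower quartile in Graft_D40, 19.7, was close to the upper quartile in Sham_D40, 20.3. In members thinned to 2000 UMIs, Bst2 was detected in 5.88%, 12.7%, 7.04% and 33.04% of cells (5 of 22, 56 of 128, 28 of 80 and 77 of 115 before thinning). The endothelial gate, whose cells express Bst2 themselves, had it in 60.3% to 72.3% of thinned cells (86.8% to 92.3% before). The endothelial markers in members summed to 88.3 CPM in Sham_D40 and 85.0 in Graft_D40, and the part of free endothelial RNA was not tested. Thinning left out 5, 2, 9 and 3 members and 263, 24, 22 and 26 endothelial cells, whose median depth was 4494, 7483, 8906 and 7886 UMIs.

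Antigen presentation genes showed the same direction. Of 26 genes 19 were measured in Graft_D40 over Sham_D40, of which 15 were called higher (78.9%, against 8.62%) and 0 lower, with a median log2 ratio of 1.21. H2-K1 (GRCm38 chr17:33996017-34000347, minus strand), a classical class I heavy chain, was at 192, 170.3, 149 and 670.4 CPM. Its Graft_D40 to Sham_D40 ratio was 3.94 (3.46 to 4.49), and it had a UMI in 7, 97, 56 and 101 members. B2m, the shared light chain, was at 757 CPM in Sham_D40 and 1763 in Graft_D40, and H2-D1 at 719 and 1672. The immunoproteasome subunits Psmb8 (13.5 and 73.5 CPM), Psmb9 (3.94 and 24.95) and Psmb10 (19.1 and 69.5), which cut peptides for class I loading, were higher, as were the transporter Tap1 (11.2 and 35.7) and its partner Tapbp (69.2 and 150.4). H2-Q7, a class Ib gene, was at 10.1 and 92.4 CPM, though class I genes are close relatives and UMIs can be split or lost between them. H2-T22, Tap2, Tapbpl and Erap1 were measured and not called. In Graft_D19 over Ctrl 0 of 15 were called higher and 1 lower. With Ctrl as comparator 6 were called higher in Graft_D40.

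Haematopoietic markers were highest in Sham_D40, at a sum of 473 CPM. They summed to 43.8 CPM in Graft_D40, near Graft_D19 (45.5). The Ctrl sum of 19.2 CPM came from 2 UMIs, and its interval of 2.33 to 69.5 includes the Graft_D40 value. Of the 842 list UMIs of Sham_D40, the highest cell of S100a8 held 288 and that of S100a9 held 330. Laptm5, Coro1a, Tyrobp, Itgam and Csf1r had no UMI in Graft_D40. The part of blood-cell RNA in the lists above was not tested. Members without any UMI of S100a8, S100a9 or Retnlg, 105 in Sham_D40 and 113 in Graft_D40, gave 31 interferon and 14 antigen presentation genes called higher. The share over all genes measured in these cells is not given, so the counts are descriptions only.

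Since the interferon genes moved together, their promoters are shown with the letters of the 2 elements that interferon-activated factors are known to bind. GAAANNGAA is the core of the interferon-stimulated response element and TTCNNNGAA that of the gamma-activated site. Both were searched on both strands of the 250 bases before each start in RefSeq promoters (GRCm38.p6), and the motifs may overlap. Of the 33 interferon genes called higher, 26 had a promoter in the table, of which 14 (53.8%) held GAAANNGAA and 5 (19.2%) TTCNNNGAA. Of all 32851 promoters 7.13% and 7.02% held them. Of the 5 interferon genes measured and not called, 4 had a promoter and 3 of these held GAAANNGAA, so the motif did not separate called from uncalled genes of the list. Of the 15 antigen presentation genes called higher, 2 (13.3%) held each motif, and of 8 tendon genes called lower 0 held either. The windows below run 5′ to 3′ on the gene's strand, lie upstream of the RefSeq start used, and have the matched letters in capitals. The Psmb8 window lies inside the annotated gene (chr17:34197721-34201454), so it is upstream only of an internal start. They were chosen because these genes carry the values above.
Bst2, chr8:71537548-71537648, minus strand: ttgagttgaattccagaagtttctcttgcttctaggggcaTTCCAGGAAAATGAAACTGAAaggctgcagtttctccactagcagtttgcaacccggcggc
Isg15, chr4:156200836-156200936, minus strand: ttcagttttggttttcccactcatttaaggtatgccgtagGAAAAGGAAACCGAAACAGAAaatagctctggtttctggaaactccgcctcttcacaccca
B2m, chr2:122147508-122147596, plus strand: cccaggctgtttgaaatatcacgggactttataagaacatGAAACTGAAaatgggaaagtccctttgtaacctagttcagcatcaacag
Psmb8, chr17:34198058-34198146, plus strand: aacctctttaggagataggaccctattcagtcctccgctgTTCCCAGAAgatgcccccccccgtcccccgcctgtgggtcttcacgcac

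In Bst2, 2 overlapping GAAANNGAA matches began 130 and 124 bases before the start, preceded by TTCNNNGAA at 136. In Isg15, 3 overlapping GAAANNGAA matches began 78, 72 and 66 bases before it. B2m had 1 GAAANNGAA match at 139 bases and Psmb8 1 TTCNNNGAA match at 97 bases before its internal RefSeq start. The windows of Irf7, H2-K1, H2-Q7 and Lgals3bp held neither letter pattern, although these genes were among those called higher. A match is a description of letters and not a site shown to be bound.

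Sub-cluster 0 held a larger share of Graft_D40 members, so the lists were followed within sub-clusters. Its summed interferon list was at 2796 CPM in Sham_D40, below sub-cluster 3 at 3016, and at 6115 in Graft_D40, where it was the highest of the 6 sub-clusters present. In Sham_D40, H2-K1 was at 804 CPM in sub-cluster 0 and at 136 in the members outside it. In Graft_D40 the values were 1339 and 274. Among members outside sub-cluster 0, 72 in Graft_D40 and 120 in Sham_D40, 23 of 34 measured interferon genes were called higher and 0 lower (median 0.91). There 9 of 17 antigen presentation genes were called higher (median 0.74), against 6.31% of all genes measured in these cells. In the adventitial fibroblast-like sub-cluster, with 20 and 21 cells, 17 of 27 interferon genes were called higher (median 1.53), against 4.06% of all measured genes. In sub-cluster 4, with 31 and 52 cells, 9 of 31 were (median 0.44, against 4.39%). In sub-cluster 0, with 43 and 8 cells, 7 of 36 were (median 1.07, against 3.9%). In sub-cluster 3, with 13 and 16 cells, 3 of 19 were (median 0.32, against 4.8%) and 1 was called lower, against 5.86%.

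**Figure D4:**
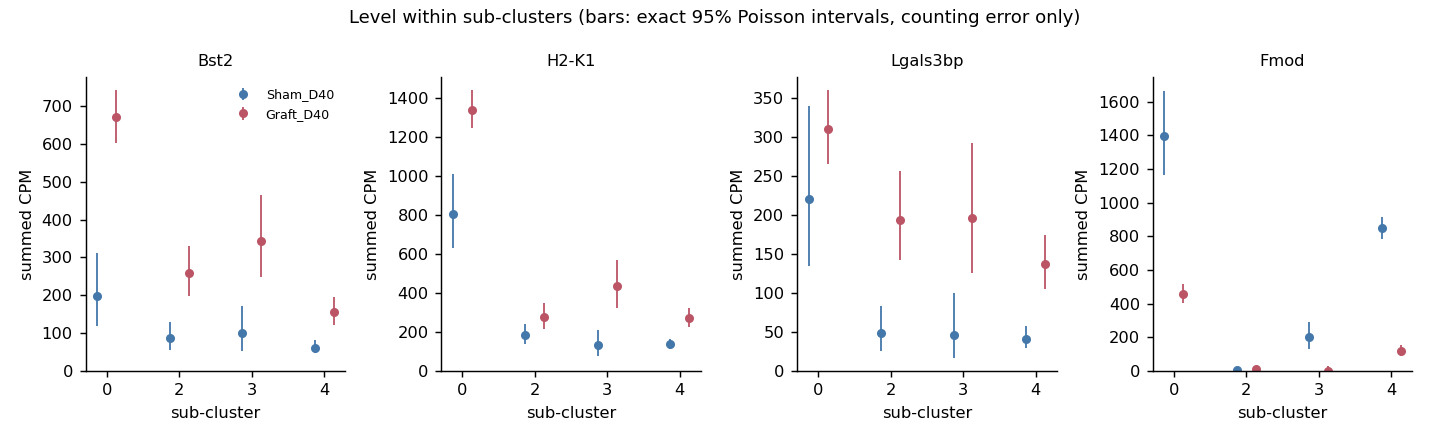
Levels of Bst2, H2-K1, Lgals3bp and Fmod (y axis, summed CPM) in Sham_D40 (blue) and Graft_D40 (red) within sub-clusters 0, 2, 3 and 4 (x axis). Bars are exact 95% Poisson intervals of the counts. Bst2 and H2-K1 are higher in Graft_D40 in all 4 sub-clusters, Lgals3bp clearly so in 3 of them, and Fmod is lower in sub-clusters 0, 3 and 4.

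Bst2 was at 671 CPM in Graft_D40 and 198 in Sham_D40 in sub-cluster 0, and at 259 and 86.1 in sub-cluster 2. It was at 344 and 100.0 in sub-cluster 3, and at 156 and 61.4 in sub-cluster 4. Bst2 and H2-K1 were called higher in each of these 4. Isg15 was called in sub-clusters 0, 2 and 3 and stood at 44.2 CPM in Graft_D40 and 51.9 in Sham_D40 in sub-cluster 4. B2m was called in 2, 3 and 4, and stood at 2862 and 2477 CPM in sub-cluster 0. Sub-clusters 1, 5 and 6 had too few cells in Graft_D40 (4, 4 and 0) to be compared.

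The same lists were read in other gates of the same libraries, by fold alone. At 1.5-fold or more, 35 of 38 measured interferon genes were higher in Graft_D40 than in Sham_D40 among members, against 14.7% of all measured genes by fold alone. This held for 17 of 43 in the LepR gate (median log2 ratio 0.36, against 6.46% of its measured genes) and 25 of 45 in the endothelial gate (0.56, against 9.0%). It held for 12 of 35 in the osteoblast gate (0.04, against 3.03%) and 0 of 14 in the chondrocyte gate (-0.32, against 1.68%). The median over all measured genes was -0.31 in the osteoblast gate and 0.05 or closer to 0 in the other gates. For antigen presentation the medians were 1.21 in members, 0.09 in the LepR gate, 0.43 in the endothelial gate, -0.60 in the osteoblast gate and -0.13 in the chondrocyte gate. The order of the gates is a description of 2 libraries, and the differences between gates were not tested.

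Genes of tendon and ligament were lower in Graft_D40 members. All 10 markers were measured, 9 were called lower (5.0% of all measured genes were) and 0 higher, with a median log2 ratio of -2.02. Against Graft_D19, 9 of 10 were called lower (4.07% of all measured genes) with a median of -1.89. In Graft_D19 over Ctrl 2 were called higher and 2 lower, and in Sham_D40 over Ctrl 1 and 1. With a Col3a1 limit of 20 in place of 30, 5 were called lower.

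Thbs4 (chr13:92751590-92794818, minus strand), a thrombospondin of tendon matrix, was at 1424, 1141, 907 and 231 CPM. The Graft_D40 to Sham_D40 ratio was 0.202 (0.180 to 0.227). It had a UMI in 11 of 22, 64 of 128, 30 of 80 and 20 of 115 members. Fmod (fibromodulin, chr1:134037254-134048277, plus strand), which binds collagen fibrils, was at 1973, 1712, 1320 and 488 CPM, a ratio of 0.285 (0.262 to 0.309). Graft_D40 was the lowest library for both genes, and its highest cell held 23.1% of the Thbs4 and 18.7% of the Fmod UMIs.

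Chad (chondroadherin, chr11:94565047-94569127, plus strand), a matrix protein that binds integrins, was at 837, 787, 708 and 111 CPM, and Cilp2 at 298, 356, 238 and 46.5. Cilp2 had a UMI in 6, 38, 18 and 7 members. Tnmd (tenomodulin), a membrane protein of mature tendon, was at 106, 82.6, 53.5 and 11.5 CPM, and Scx (scleraxis), the tendon transcription factor, at 135, 57.9, 44.4 and 16.2. Each of these was lowest in Graft_D40. Tnmd rested on 2, 13, 9 and 4 cells, and 1 Ctrl cell held 90.9% of its Ctrl UMIs. Mkx, a second tendon transcription factor, was measured at 12.4 CPM in Sham_D40 and 7.42 in Graft_D40 and was not called.

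Per cell the tendon list had medians of 12.1, 9.65, 3.44 and 1.45 UMIs per 10000, with upper quartiles of 157, 56.4, 33.4 and 4.90. Thinned to 2000 UMIs, Thbs4 was detected in 47.1%, 38.1%, 28.2% and 8.93% of members, against 0.219% to 0.850% of endothelial gate cells (0.425% to 2.16% before thinning). The tendon-like sub-cluster held 4 members in Graft_D40 and 9 in Sham_D40. In it the tendon list summed to 20186 CPM in Graft_D40, near Ctrl (20438) and Graft_D19 (18611), and to 29394 in Sham_D40. Within sub-cluster 4, 6 of 9 measured tendon genes were called lower, against 4.87% of all genes measured there. Fmod was at 120 CPM in Graft_D40 and 848 in Sham_D40, whereas Thbs4 (267 and 305) and Chad (37.9 and 23.6) were not called. In sub-cluster 3, 2 of 4 measured tendon genes were called lower and 1 higher, against 5.86% and 4.8% of all genes measured there. Thbs4 was called lower there, at 8.18 CPM in Graft_D40 and 1554 in Sham_D40. In sub-cluster 2, 1 of 2 was called lower (against 3.45%), namely Thbs4, at 0 and 135 CPM. In sub-cluster 0, 2 of 3 were called lower (against 7.0%). Outside sub-cluster 0 all members together had 9 of 10 called lower, against 4.93% of all measured genes, with a median of -1.82. Makeup still differed there, since sub-clusters 1, 5 and 6 held 9, 12 and 10 Sham_D40 members and 4, 4 and 0 of Graft_D40. The part of makeup in the lower tendon genes was not tested. In the LepR gate 5 of the markers were measured, with a median of -0.09.

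Of the 10 genes with the lowest day 40 ratios under the naming rule, Chad, Cilp2, Thbs4 and Fmod are on the tendon and ligament list. Cilp, a label marker, was lower too and is not on that list. In Sham_D40 it was at 1533 CPM in the chondrocyte gate, against 1615 in members. Clu (clusterin), an extracellular chaperone, was at 1203, 2225, 829 and 316 CPM, and Ecrg4 at 625, 1231, 689 and 185. Clu came from few cells, with 56.0%, 26.3%, 62.6% and 23.5% of the UMIs in the highest cell of each library. The rest were Crispld1 (86.6, 154, 68.3 and 24.3 CPM), the noncoding RNA Meg3 (173, 181, 132 and 52.6) and the mitochondrial subunit Ndufa4l2 (269, 439, 388 and 93.8). Comp, a cartilage and tendon pentamer, was at 2540, 5578, 4164 and 2008 CPM, so Ctrl was nearly as low as Graft_D40.

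The matrix genes divided. Of 14 measured small leucine-rich proteoglycans 7 were called lower and 1 higher (median -0.51). Chad, Kera and Fmod are also on the tendon list. Dcn was lower (ratio 0.646, interval 0.634 to 0.657) and so was Lum (0.575, 0.551 to 0.599), whereas Bgn (biglycan), at 2507 CPM in Sham_D40 and 2289 in Graft_D40, was not called. Outside sub-cluster 0, Dcn was at 20110 CPM in Sham_D40 and 18961 in Graft_D40 and was not called. The fibrillar collagens had 1 of 9 called higher, Col5a3, and 3 lower, Col11a1, Col24a1 and Col27a1. Col3a1 itself, fixed in part by the rule, stood at 12701 and 13094 CPM, and Col1a1 at 9029 and 6295.

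**Figure D5:**
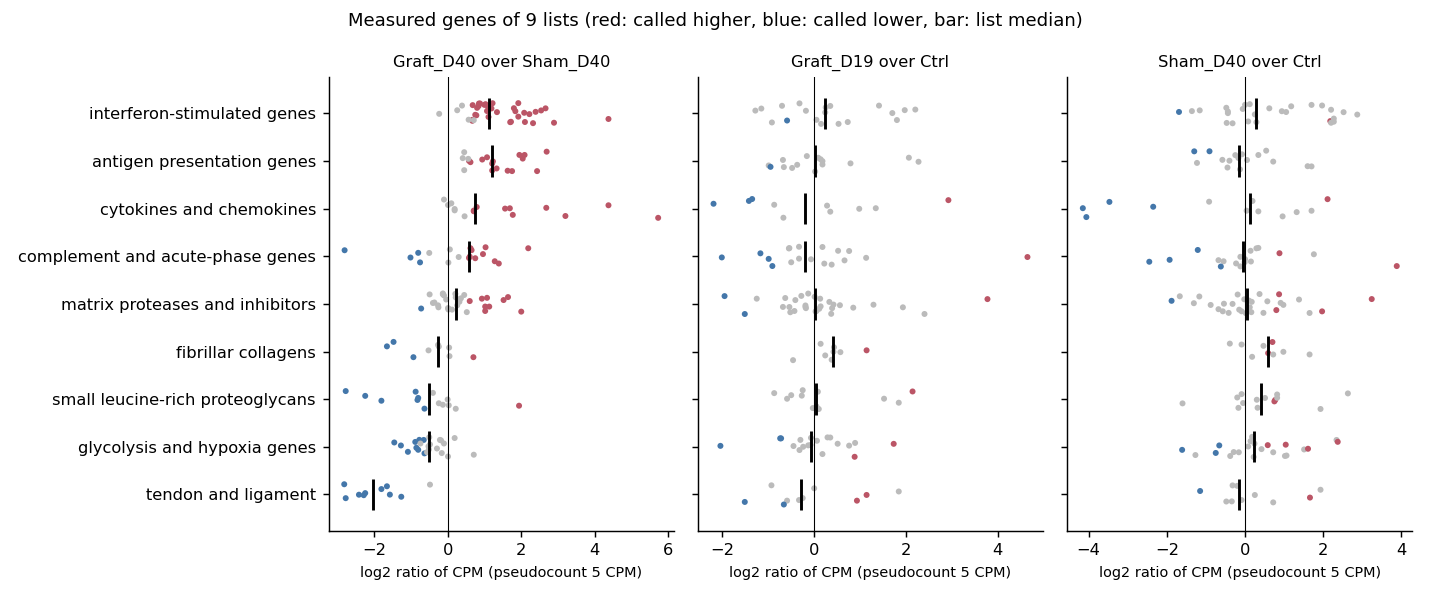
Log2 ratio of CPM (x axis, after adding 5 CPM) of the measured genes of 9 lists in 3 comparisons. Points are genes, red when called higher and blue when called lower, and black bars are list medians. At day 40 the interferon and antigen presentation genes lie to the right (medians 1.11 and 1.21) and the tendon genes to the left (median -2.02), whereas in Graft_D19 over Ctrl and Sham_D40 over Ctrl these lists straddle 0.

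Fibronectin and matricellular genes were mixed, with 7 of 41 called higher and 12 lower (median -0.29), and Thbs4, Cilp and Cilp2 stand on this list too. Mgp (matrix Gla protein), an inhibitor of mineralisation, was at 1655, 2629, 3947 and 6492 CPM and had a UMI in 15, 122, 69 and 114 members. It was at 29527 to 59154 CPM in the chondrocyte gate and at 170, 1604, 601 and 1535 in the endothelial gate. The part of free RNA in its detection was not tested. Ccn5, a growth-restraining matricellular protein, was at 144, 182, 86.5 and 432 CPM. Thbs1, an activator of latent TGF-beta, was at 28.9, 208, 204 and 58.7 CPM, so Ctrl and Graft_D40 were the low libraries. Tgfbi was at 192, 415, 311 and 216 CPM in the same pattern. Fn1 was not called, at 9521 CPM in Sham_D40 and 9160 in Graft_D40.

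Nonfibrillar collagens and elastic fibre genes went both ways. Of 15 nonfibrillar collagens 4 were called higher and 3 lower (median 0.10). Col4a1, of basement membrane, was at 433, 305, 367 and 721 CPM, a Graft_D40 to Sham_D40 ratio of 2.36 (2.13 to 2.62), and Col4a2 at 250.2, 210.3, 217 and 419. Col8a1, a network collagen, was at 433, 151, 264 and 515 CPM, so its Ctrl level was close to that of Graft_D40. Of 19 elastic fibre genes 6 were called higher and 3 lower (median 0.35). Fbln5, which assembles elastin, was at 57.7, 61.8, 48.9 and 173 CPM, a ratio of 2.80 (2.23 to 3.54). Loxl1, an elastin crosslinker, was at 374 CPM in Graft_D40 and 150.2 to 260 elsewhere, and Ltbp1 and Ltbp2, which hold latent TGF-beta in the matrix, were called too.

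Among proteases and inhibitors 9 of 32 were called higher and 1 lower over all members (median 0.24). Outside sub-cluster 0, 6 of 29 were called higher and 5 lower (median 0.03). Mmp14, the membrane collagenase, was at 269, 265, 237 and 588 CPM, a ratio of 2.22 (1.98 to 2.48) with a UMI in 98 of 115 Graft_D40 members. Mmp13, a collagenase of bone and cartilage, was at 981, 263, 251.4 and 1068 CPM. It was concentrated in sub-cluster 0 (1156 CPM in Sham_D40 and 2775 in Graft_D40), and outside it was at 55.9 CPM in Graft_D40 and 215 in Sham_D40. In Ctrl 1 cell held 93.1% of its UMIs. The collagen folding list did not move as a whole, with 2 of 30 called higher and 2 lower. Plod2 and P4ha1, which hydroxylate collagen lysines and prolines, were lower than in Sham_D40 but higher than in Ctrl (Plod2 116, 465, 363 and 160 CPM).

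Activated-fibroblast genes were divided, with 7 of 23 called higher and 2 lower. Pdgfrb, the receptor for platelet-derived growth factor B, was at 154, 142, 137 and 392 CPM, a ratio of 2.77 (2.38 to 3.22), with a UMI in 97 of 115 Graft_D40 members. Tpm2, Runx1, Tpm1 and the low genes Tagln (4.50 and 35.1 CPM) and Myl9 (2.81 and 29.0) were called as well. Acta2 limited membership, and cells with 2 or more of its UMIs were left out. Postn (periostin) was at 212, 155, 595 and 452 CPM. Outside sub-cluster 0 it was lower in Graft_D40, at 49.4 CPM against 83.5. Fap, Pdpn, Thy1, Pdgfra, Tnc and Lrrc15 were not called, nor were Vim and S100a4.

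Some lists were higher over all members and not outside sub-cluster 0. Of 18 niche factors 10 were called higher and 1, Bmp4, lower (median 0.58), but outside sub-cluster 0 this was 1 higher and 3 lower of 17 (median -0.06). Spp1 (osteopontin) was at 231, 2118, 2119 and 5879 CPM, with 59.6% of the Graft_D40 UMIs in 1 cell, and outside sub-cluster 0 it was at 114 against 1601 CPM. Tnfsf11 (RANKL) reversed in the same way, with a log2 ratio of 1.69 over all members and -1.62 outside. Cxcl12, held low by the rule, stood at 247 and 370 CPM. The LepR stroma markers had 7 of 12 called higher, and 1 of 10 higher and 2 lower outside sub-cluster 0. Lepr was at 77.6 and 152 CPM over all members and had a log2 ratio of -0.42 outside.

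Cytokines and chemokines had 10 of 16 called higher and 0 lower (median 0.75), some of them on very few cells. Cxcl9, a T-cell attractant induced by interferon gamma, was at 9.62, 1.12, 0 and 121 CPM in 1, 2, 0 and 13 cells, with 46.1% of the Graft_D40 UMIs in 1 cell. Cxcl13, a B-cell attractant, had no UMI in the other 3 libraries and 259 CPM in Graft_D40, at least 154-fold higher than Sham_D40 against a floor of 3 UMIs in that library. Of its 384 UMIs 382 were in 1 cell. Ccl2, a monocyte attractant, was at 125, 2.81, 77.4 and 66.8 CPM, so Ctrl was the highest library. Cxcl14 was the broadest, at 183 CPM in Sham_D40 and 552 in Graft_D40, detected in 31.2% and 47.8% of members, and also called outside sub-cluster 0.

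Other genes that stood out by the rule were Plac8, Ctsc, Cyp1b1, Apoe and Mme. Plac8 was at 0, 0.562, 3.41 and 128 CPM, in 0, 1, 2 and 31 members. After thinning it was detected in 13.4% of Graft_D40 members and 0.935% of endothelial gate cells of that library (27.0% and 2.91% before). Its highest cell held 40% of the Graft_D40 UMIs, and most lay in sub-cluster 0, at 309.9 CPM against 20.4 outside. Ctsc, the protease cathepsin C, was at 0, 7.31, 10.2 and 102 CPM. Apoe (apolipoprotein E) was at 96.2, 209.7, 157 and 931 CPM, a ratio of 4.44 (3.96 to 4.99), but at 198 and 177 CPM outside sub-cluster 0. Cyp1b1, a cytochrome P450, was at 0, 19.1, 20.5 and 115 CPM, and Mme (neprilysin, a peptidase) at 28.9, 25.9, 41.0 and 121.

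Complement and acute-phase genes had 10 of 18 called higher and 4 lower (median 0.59). C3, the central complement component, was at 327, 55.7, 173 and 273 CPM and Cfb at 38.5, 43.3, 69.4 and 121, so for C3 the Ctrl level was the highest. C4b was at 106, 117, 122 and 244 CPM. Adipogenic genes had 10 of 15 called higher and 1 lower, and 7 of 15 outside sub-cluster 0. They include Lpl (lipoprotein lipase), at 96.2, 68.0, 80.8 and 181 CPM, and the transcription factor Ebf1, at 430 and 736 in Sham_D40 and Graft_D40. In the IGF axis, 3 of 11 were called higher, led by Igfbp3 at 67.4, 20.2, 22.8 and 137 CPM. All of its Ctrl UMIs were in 1 cell, and outside sub-cluster 0 its log2 ratio turned to -0.34.

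Of 23 measured glycolysis and hypoxia genes 9 were called lower and 0 higher, with a median log2 ratio of -0.52. Within sub-clusters few were called, with 2 higher and 0 lower of 15 in sub-cluster 0 (3.9% and 7.0% of all genes measured there). In sub-cluster 2, 0 of 17 were called either way (4.06% and 3.45% of all genes measured there). In sub-cluster 3, 1 of 13 was called higher and 1 lower (4.8% and 5.86% of all genes measured there). In sub-cluster 4, 0 of 19 were called higher and 2 lower (4.39% and 4.87%). Outside sub-cluster 0 together 1 of 23 was called higher and 7 lower. Eno1 (enolase) was at 269, 158, 198 and 83.6 CPM and Pgk1 at 116, 128, 97.8 and 68.8, both lowest in Graft_D40. Bnip3, a hypoxia-induced mitophagy receptor, was at 28.9, 98.4, 58.0 and 37.8 CPM, so it was lower than in Sham_D40 and not than in Ctrl. With Ctrl as comparator 3 were called lower, and with a Col3a1 limit of 20, 4. Per cell the list had medians of 27.3, 22.5, 22.2 and 18.7 UMIs per 10000.

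Cell cycle genes had 10 of 14 called higher, but this rested on 2 cells, which held 402 of the 604 list UMIs of Graft_D40. Outside sub-cluster 0, 0 of 7 were called higher. Chondrocyte markers were mixed. Acan and Sox9 were lower (167 and 22.3, 144 and 23.6 CPM in Sham_D40 and Graft_D40), whereas Col9a3 was higher at a low level (5.06 and 23.6). Sub-cluster 6, where Acan was at 1231 CPM against 35.9 in the other members, held 10 Sham_D40 and 0 Graft_D40 members. The part of makeup in these ratios was not tested. Col2a1, which the rule limits, stood at 35.4 and 111 CPM. Graft_D40 had 728 cells in the chondrocyte gate and Sham_D40 261, and the part of their free RNA was not tested. Sterol genes had 1 of 21 called higher, immediate early genes 4 of 29 higher and 6 lower, and TGF-beta ligands and targets 5 of 24 higher and 4 lower.

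Among fibroblast transcription factors 9 of 37 were called higher and 8 lower. Sox4, a factor of mesenchymal progenitors, was at 48.1, 95.01, 98.97 and 196 CPM, and Runx1, known from haematopoietic and skeletal cells, at 48.1, 142, 107 and 256. Both were highest in Graft_D40, with a UMI in 69 and 75 of its 115 members. Klf4 was lower than in Sham_D40 (617 and 407 CPM) and higher than in Ctrl (183). Foxc2 (2.81 and 18.9 CPM) and Nr2f2 (8.43 and 37.8) were called at low levels.

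Modulators of BMP and Wnt signals were divided evenly, with 5 of 20 called higher and 5 lower. Bmp4, a ligand, was at 86.6, 86.0, 69.4 and 33.7 CPM. Fst (follistatin), which binds activins, was at 67.4, 31.5, 54.6 and 92.4 CPM, and Rspo3, which strengthens Wnt signals, at 0, 6.18, 14.8 and 44.5. Of these, Bmp4 was lowest and Rspo3 highest in Graft_D40. Nt5e (CD73), an ectoenzyme used as a mesenchymal marker, was at 77.0, 188, 86.5 and 31.0 CPM. The pericyte list had 4 of 6 measured genes called higher, among them the receptor Notch3 at 0, 14.1, 10.2 and 79.6 CPM in 0, 11, 6 and 43 members. In the same members Higd1b and Cnn1 were at 0, and Rgs5 and Myh11 were at 0 by the rule.

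The early graft was compared with Ctrl, whose 22 members leave little precision. Of 8517 measured genes 337 (3.96%) were called higher in Graft_D19 and 424 (4.98%) lower, with a median log2 ratio of 0.18. Ibsp (bone sialoprotein) was at 991, 1982, 6382 and 844 CPM. The Graft_D19 to Ctrl ratio was 6.44 (5.30 to 7.90), but 92.2% of the Ctrl UMIs came from 1 cell and a UMI was found in only 26 of 80 Graft_D19 members. Col12a1, a collagen of fibril surfaces, was at 221, 289.5, 631 and 508 CPM, and Omd (osteomodulin) at 86.6, 156, 400.4 and 117. Postn was 2.81-fold higher (1.84 to 4.52), yet without the 5 deepest members its log2 ratio was -0.12. Collagen folding genes had 7 of 29 called higher and 1 lower (median 0.47), among them Plod1 at 19.2 CPM in Ctrl and 73.9 in Graft_D19, and in Sham_D40 over Ctrl 8 of 29 were called higher and 1 lower. Scg3, at 262 CPM against 28.9, and Fabp5, at 121 against 48.1, were the other named genes. The chondrocyte markers had 6 of 10 called higher and 0 lower, beside 622 chondrocyte gate cells in Graft_D19 and 197 in Ctrl.

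For the genes named as lower at day 19, the share of Ctrl UMIs in 1 cell is given beside the values. Prg4 (lubricin, of the joint lining) was at 5542, 3218, 1471 and 2632 CPM, and 91.0% of the Ctrl UMIs came from 1 cell, without which its log2 ratio turned to 1.16. All Ctrl UMIs of Sfrp2 came from 1 cell. Ctsk (cathepsin K) was at 1068, 795, 373 and 1088 CPM, with 60.4% of the Ctrl UMIs in 1 cell. For Acp5, Csrp2 and F2r this share was 75%, 75% and 56.25%. Thbs4 was called lower, at 0.637 of its Ctrl level (0.534 to 0.764), and Scx at 0.329 (0.175 to 0.657), with the highest Ctrl cells holding 25% and 35.7%.

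The ungrafted libraries differed from each other in several lists. In Sham_D40 over Ctrl 7 of 12 adventitial markers were called lower, and 11 of 29 immediate early genes were called higher and 2 lower, against 5.56% and 4.57% of all measured genes. Adipogenic genes had 5 of 15 called lower and 1 higher, IGF axis genes 4 of 11 lower and 1 higher, and cytokines 4 of 12 lower and 1 higher. The haematopoietic markers had 4 of 4 called higher, chondrocyte markers 4 of 7 and osteolineage markers 3 of 8, with 0 lower in these 3 lists. Cd248 (endosialin) was at 375 CPM in Ctrl and 131.5 in Sham_D40, Clec3b at 2781 and 996, and Ly6a (Sca1) at 1790 and 1143. Fos was at 38.5 and 439 CPM and Klf4 at 183 and 617. Between the grafts 768 of 10331 measured genes (7.43%) were called higher at day 40 and 420 (4.07%) lower. This comparison shares each of its libraries with another above, so its counts are not separate evidence.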

How the data were processed

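RNA of sorted femur marrow cells was measured in 4 libraries by droplet single-cell sequencing with the 10x Genomics 3′ chemistry. Each deposited matrix holds unnormalised UMI counts by gene and cell barcode. Cell Ranger 5.0.0 wrote it, per the file headers, while Cell Ranger 3.1.0 and the build mm10 stand in the submitters' processing notes. Antibody features were left out of all totals. Members, gene lists and the rule for named genes were chosen with earlier results of these data known. UMIs were summed over members per library and scaled to CPM. Ratios carry exact conditional binomial intervals, levels exact Poisson intervals and shares Clopper-Pearson intervals at 95%, and no p-value was computed with 1 library per group. The count comparisons were tested on simulated counts. Named genes were called genes at 100 CPM or more in the higher library with the same direction against both ungrafted libraries, in order of the smaller of both log2 ratios, 10 each way at day 40 and 6 at day 19. Added were the label markers, 2 sort markers, the 15 highest and 8 lowest against the LepR gate, and from each list up to 4 called members of largest log2 ratio at 50 CPM or more. Mitochondrial, ribosomal, haemoglobin, immunoglobulin, sex-linked and unnamed genes and the rule's own were left out. Other list members named in the text were chosen after their values were seen. The other gates were LepR stroma (Cxcl12 at 50 or more per 10000 and a Lepr UMI), osteoblasts (2 or more Ifitm5 UMIs), chondrocytes (Col2a1 at 50 or more per 10000) and endothelium (2 or more Cdh5 UMIs). Sub-clusters came from the Leiden method in scanpy 1.11.5 with igraph 0.11.9 on log counts per 10000. Scrublet ran at an expected rate of 6%. Other tools were numpy 2.4.6, pandas 2.3.3 and scipy 1.17.1 under Python 3.11.15. Alternatives were other Col3a1 and Cxcl12 limits, a mitochondrial limit, doublets left out, the 5 deepest members left out, median-of-ratios scaling, equal weight per cell, other pseudocounts, filters and folds, and Ctrl as comparator. Added after seeing the data were a clustering without called genes, members outside sub-cluster 0, members without neutrophil UMIs, and each gene without its highest cell. Coordinates are those of GRCm38.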

Additional observations from a re-analysis of the deposited data

Results flagged for a closer look

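Among the genes named here, 18 were called in opposite directions in Graft_D40 over Sham_D40 and in Graft_D19 over Ctrl. The difference between the comparisons was not tested, and the Ctrl levels rest on 22 members. Higher at day 40 and lower at day 19, in log2 ratios, were Igfbp3 (2.49 and -1.38), C3 (2.19 and -0.90), Mmp13 (2.0 and -1.94), Col8a1 (1.74 and -0.70), Sfrp4 (1.34 and -0.89), Loxl1 (1.0 and -0.77), Hp (0.96 and -2.0), Igfbp4 (0.92 and -0.81) and Cebpb (0.84 and -1.38). Lower at day 40 and higher at day 19 were Acan (-2.66 and 2.13), Tnn (-1.85 and 1.33), Thbs1 (-1.74 and 2.62), Col11a1 (-1.65 and 1.15), Plod2 (-1.51 and 1.61), Ibsp (-1.23 and 2.68), P4ha1 (-1.08 and 1.74), Col15a1 (-0.97 and 0.91) and Tgfbi (-0.93 and 0.68). Of the Ctrl UMIs of Igfbp3 and Tnn all were in 1 cell.

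Sham_D40 and Graft_D40 also hold 2 antibody features, and the sources used here do not say what they label. Sham_D40 members had 28919 UMIs of B0301 and 505 of B0302. Graft_D40 members had 118 of B0301 and 85837 of B0302. In all 128 and all 115 members the more frequent feature was at least 10-fold above the other.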

How the results depend on the processing

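Depth limits every comparison with Ctrl, where 1 UMI is 9.62 CPM, and 1 library per group limits all of them. No paired analysis was possible because each group has 1 library. The share of members moved with the Col3a1 limit, to 3.41% in Sham_D40 and 2.93% in Graft_D40 at 20, and to 0.265%, 1.99%, 1.08% and 1.73% in Ctrl, Sham_D40, Graft_D19 and Graft_D40 at 50. The number of genes called higher in Graft_D40 over Sham_D40 became 1770 with equal weight per cell, 196 at a mean of 50 CPM or more (3182 genes measured), 540 at 2-fold and 501 with Ctrl as comparator. All counts with equal weight per cell, here and below, asked for the fold alone and for no interval. With summed UMIs 1517 genes were higher by fold alone and 890 with the interval, so 1770 is to be read beside 1517. The number of genes called lower in Graft_D40 over Sham_D40 became 1131, 168 and 260 under the first 3 of these. Equal weight per cell raised the number of genes called higher in Graft_D19 over Ctrl to 3449, and a Col3a1 limit of 50 and leaving out the 5 deepest members gave 191 and 207. The number of genes called lower in Graft_D19 over Ctrl became 1805 with equal weight and 248 at 2-fold. Median-of-ratios scaling gave 800 higher and 578 lower at day 40, and 390 and 357 at day 19.

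Of 1757 values of single genes and lists under these alternatives 1314 stayed close, 399 moved and 44 reversed, and the cause was not tested. At day 40 with Ctrl as comparator the log2 ratios turned for Hp (-0.96), Sox9 (0.24), Cspg4 (0.56), S100b (0.47), Cd248 (-0.90), Col27a1 (0.05), Col15a1 (0.01), Thbs1 (0.91), Plod2 (0.45), P4ha1 (1.29), Tgfbi (0.16), Tgfbr1 (0.19), Sfrp4 (-0.06), Igfbp4 (-0.19), Mdk (-0.25), Ccl2 (-0.86), C3 (-0.26), Dusp1 (0.06), Cebpb (-0.57), Cebpd (-0.30), Bnip3 (0.34) and Sox5 (1.41). Outside sub-cluster 0 they turned for Postn (-0.70), Col12a1 (-0.55), Hp (-1.31), Spp1 (-3.76), Mmp13 (-1.85), Adamts10 (-0.44), Igfbp3 (-0.34), Pappa (-0.22), Tnfsf11 (-1.62), Lepr (-0.42) and Hmgb2 (-0.75), and at day 19 for Sfrp2 (2.17). Pi16 turned at a Col3a1 limit of 50 (0.63), as did Prg4 (2.02) and Csrp2 (0.64) at day 19. Without the 5 deepest members Postn (-0.12), Sfrp2 (2.42), Prg4 (0.61) and Ctsk (1.08) turned at day 19. Without the highest cell of each library Car3 (-0.28) turned at day 40, and Sfrp2 (1.38) and Prg4 (1.16) at day 19.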
